A study of Mus musculus with 4 samples.

Results

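STAT3 and the genes that its cytokine signal switches on were followed here in astrocyte-enriched cultures (AECs) deprived of oxygen and glucose. The genes were *Stat3*, the feedback inhibitors *Socs1*, *Socs2*, *Socs3* and *Cish*, the kinases *Pim1*, *Pim2* and *Pim3*, and the NF-κB cofactor *Bcl3*. They make up 9 of the 29676 gene names on the array and 13 of its 39429 probes, since *Socs2* has 4 probes, *Stat3* has 2 and every other gene has 1. The probes were taken by gene name, and the genes were chosen by name with their processed signals on untreated and OGD arrays already known. Their signals and fold changes are therefore a description. No p-value of theirs is given, and how many of them the fit over all probes called is stated only beside the share of all probes called.

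The AECs were glial cultures from the cortex of newborn ICR mice of either sex, several pups to a culture. All of them, controls included, had been treated with PLX3397, an inhibitor of the CSF-1 receptor that depletes microglia. In oxygen-glucose deprivation (OGD) the cells are kept in medium without glucose under hypoxia. RNA of 2 untreated cultures and of 2 cultures after 15 h of OGD was hybridized to arrays with 1 colour, and per the methods each well held cells of an independent culture from different pups. Mixed glial cultures also hold oligodendrocyte lineage cells, so that a signal is the sum over the cell types present.

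Cytokines of the IL-6 family bind receptors that share the chain gp130, and Janus kinases bound to the receptor phosphorylate STAT3, which then enters the nucleus and activates genes. Among these genes are *Socs3*, whose protein binds gp130 and the Janus kinases and shuts the signal off, and *Pim1*, whose protein is a serine/threonine kinase that needs no phosphorylation to be active. In astrocytes STAT3 is known for its part in reactive gliosis.

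STAT proteins bind DNA at the motif TTCNNNGAA, which reads the same on both strands. The RefSeq promoter windows (build GRCm38.p6) run from 250 bases before a transcript start to 50 after it, and 8 of the 9 genes had such a window, *Pim1* with 2 starts, so that 9 windows were searched. *Socs2* had no window. The STAT motif was found in the windows of *Socs3* and *Cish*, printed here because these are the feedback inhibitors that the motif is known for. The window of the second *Pim1* start is printed because it holds CACGTG, a palindrome that contains ACGTG on both strands, one of the forms of the core that hypoxia-inducible factors bind. Each is written 5′ to 3′ on the strand of the gene, with the matches to TTCNNNGAA and to ACGTG, on either strand, in capitals. They lie at chr11:117969317-117969616 on the minus strand for *Socs3*, at chr9:107296409-107296708 on the plus strand for *Cish* and at chr17:29492835-29493134 on the plus strand for *Pim1*.
Socs3 promoter: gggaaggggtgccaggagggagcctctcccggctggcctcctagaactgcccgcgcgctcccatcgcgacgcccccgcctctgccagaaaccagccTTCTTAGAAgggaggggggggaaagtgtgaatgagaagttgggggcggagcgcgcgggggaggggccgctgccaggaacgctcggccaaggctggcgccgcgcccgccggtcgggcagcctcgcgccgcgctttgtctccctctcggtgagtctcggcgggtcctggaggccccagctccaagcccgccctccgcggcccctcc
Cish promoter: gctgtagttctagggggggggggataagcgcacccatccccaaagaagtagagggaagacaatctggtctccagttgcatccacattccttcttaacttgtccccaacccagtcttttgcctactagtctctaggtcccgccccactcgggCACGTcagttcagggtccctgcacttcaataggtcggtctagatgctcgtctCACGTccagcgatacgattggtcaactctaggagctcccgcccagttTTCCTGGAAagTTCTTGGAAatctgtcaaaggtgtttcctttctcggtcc
Pim1 promoter, second start: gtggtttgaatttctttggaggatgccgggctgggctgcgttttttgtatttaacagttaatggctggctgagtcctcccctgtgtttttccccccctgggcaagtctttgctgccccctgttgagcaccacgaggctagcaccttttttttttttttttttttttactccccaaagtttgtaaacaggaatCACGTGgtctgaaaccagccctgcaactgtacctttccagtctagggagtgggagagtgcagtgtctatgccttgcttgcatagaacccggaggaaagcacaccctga
The capitals in the *Socs3* window are a single STAT motif whose first base is at position −154 from the start. The *Cish* window holds 2 such motifs, whose first bases are at positions 1 and 12, and CACGT, which is ACGTG read on the other strand, at −99 and −47. Of all 32851 promoter windows, 8.30% hold the STAT motif and 0.457% hold it at 2 or more places.

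The hypoxia core was searched in both of its forms, ACGTG and GCGTG, on both strands. Beside *Cish* and the second start of *Pim1*, where the matches begin at −58 and −57, it was found as GCGTG in the windows of *Pim2*, *Pim3* and *Stat3*. It was in neither form in those of *Socs1*, *Socs3*, *Bcl3* and the first start of *Pim1*. Of all promoter windows, 19.6% hold ACGTG, 32.4% hold GCGTG and 43.8% hold at least 1 of them, so that such a match is common. A match describes the letters of the window and does not show that a factor binds there.

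**Figure D1:**
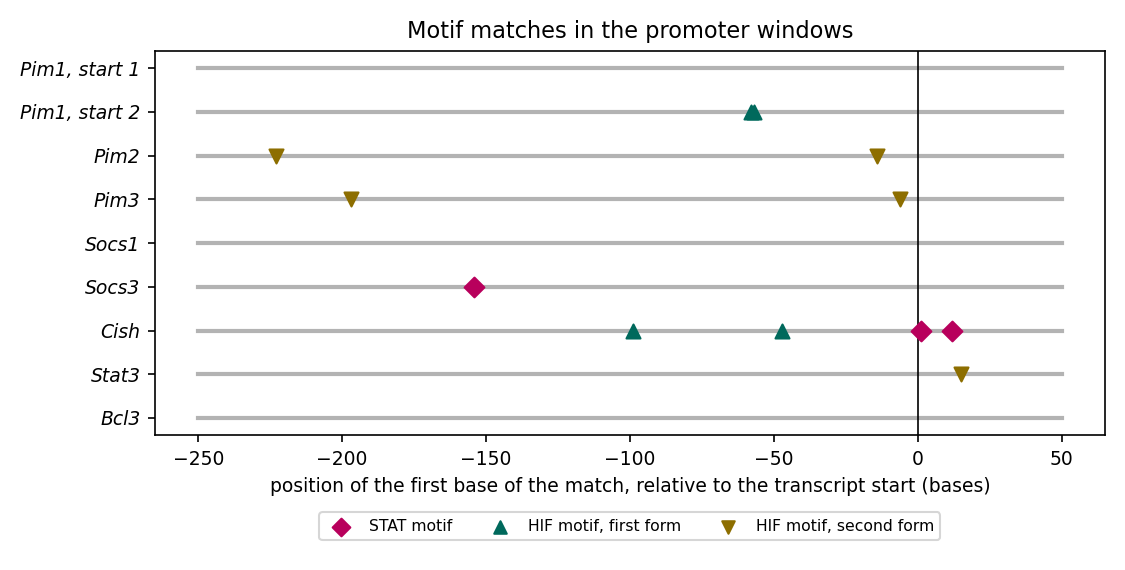
Motif matches in the promoter windows of 8 genes. Each grey line is a window from 250 bases before to 50 bases after a transcript start, and each symbol marks the first base of a match. The STAT motif (diamonds, TTCNNNGAA) lies in the windows of *Socs3* and *Cish*, with 2 matches close together in *Cish*, and the hypoxia core (triangles, ACGTG up and GCGTG down) lies in those of *Cish*, *Pim1*, *Pim2*, *Pim3* and *Stat3*.

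The probes are 60 bases long. The 2 printed here show what the array read for *Socs2*, whose probes differed from each other, and for *Pim1*, which had the largest difference of the 13. They are written in lower case because no base in them is singled out.
Socs2 A_55_P1992838: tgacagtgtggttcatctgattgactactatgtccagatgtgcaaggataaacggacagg
Pim1 A_52_P530291: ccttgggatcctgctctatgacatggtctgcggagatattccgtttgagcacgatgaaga
Positions of probes are given on mm9, the build of the deposited files. Exons and untranslated regions of that build were not used here.

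The values below are the deposited processed signal, an intensity from which the scanner software had subtracted background within each array. Each of the 13 probes was marked well above background on every array, and none of their spots was saturated. Over all probes, the 75th percentile of this signal was 2135 and 2164 in untreated cultures against 887 and 776 under OGD, or −1.37 in log2 units. As in the methods, each array's log2 signal was set against its own 75th percentile, and a fold change is relative to that percentile. The arrays also carry probes for spiked-in control RNA, of which 9 were used. Their own log2 differences, OGD minus untreated, ran from −0.75 to 0.28 with a mean of −0.085. With the spiked-in RNA in place of the percentile, the median log2 fold change over the 28254 probes tested moved from 0.18 to −1.11, and the share of probes with a lower value after OGD moved from 42.5% to 91.8%. A lower processed signal after OGD is therefore common on these arrays. The share of all probes whose groups do not overlap in processed signal was not counted.

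*Stat3* encodes the transcription factor itself. At the probe A_51_P201480 (chromosome 11, 100749598 to 100749657, minus strand), which is spotted 10 times on each array, untreated cultures had processed signals of 21771 and 22501, and OGD cultures had 14351 and 15098. The OGD arrays were both below the untreated arrays in processed signal. Against the 75th percentile the order turned, from 3.36 ± 0.020 to 4.15 ± 0.19 on the log2 scale (SD, n = 2 in each group). The log2 fold change was thus 0.78 (SE 0.12), a fold of 1.72, and −0.50 against the spiked-in RNA. The log2 signals of the 10 spots on an array had an SD between 0.038 and 0.066. Per the methods the same mass of total RNA was labeled for each array, so that neither scale reads RNA per cell. A shift in the share of a cell type cannot be told apart from a change within its cells in such bulk samples.

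The second *Stat3* probe, A_55_P1991219 (chromosome 11, 100759946 to 100760005), had processed signals of 262 and 295 untreated and 230 and 254 after OGD. Its log2 fold change was 1.17 (SE 0.15) against the 75th percentile and −0.12 against the spiked-in RNA. Both *Stat3* probes therefore lay above the median of all probes, by 0.61 and 0.99, and were at −0.50 and −0.12 where the spiked-in RNA set the scale. The distance of A_51_P201480 was smaller with normexp background correction (0.17) and with quantile normalization (0.23). That of A_55_P1991219 was 0.58 and 1.24 there.

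*Socs3*, the main feedback inhibitor of gp130 signaling, had the largest decrease of the 9 genes. Its probe (A_51_P474459, NM_007707, chromosome 11, 117827480 to 117827539, minus strand) had processed signals of 13469 and 14316 in untreated cultures, against 1020 and 1163 in OGD cultures. The groups lay far apart and did not overlap. The normalized log2 signal was 2.69 ± 0.048 untreated and 0.39 ± 0.27 after OGD (SD, n = 2), a log2 fold change of −2.30 (SE 0.16) or 4.92-fold lower. It was also lower with normexp background correction (−2.36) and against the spiked-in RNA (−3.59). Ordered from the lowest log2 fold change, the probe stood at 771 of 28254.

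*Cish* encodes a SOCS protein that curbs receptors signaling through STAT5. Its probe (A_51_P470715, NM_009895, chromosome 9, 107204196 to 107204255, plus strand) had processed signals of 1761 and 1773 untreated and 412 and 353 after OGD. The untreated arrays nearly coincided and the OGD arrays were both below them. The log2 fold change was −0.84 (SE 0.075), 1.79-fold lower, and −2.13 against the spiked-in RNA.

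*Socs1*, which inhibits Janus kinases directly and is known from interferon signaling, had processed signals of 1150 and 1231 untreated and 302 and 354 after OGD (A_51_P279606, chromosome 16, 10783951 to 10784010, minus strand). The processed signals did not overlap between groups. Relative to the 75th percentile the log2 fold change was smaller, −0.49 (SE 0.17), since the percentile itself was lower on the OGD arrays. It was −1.78 against the spiked-in RNA.

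*Socs2*, a regulator of growth hormone receptor signaling, was read by 4 probes that did not move together, of which 3 lie within 462 bases of chromosome 10. A_51_P107362 (94875066 to 94875125), with 10 spots on each array, had processed signals of 689 and 747 untreated and 251 and 224 after OGD. A_55_P1992834 (94875187 to 94875246) had 511 and 529 untreated and 161 and 149 after OGD. A_55_P1992838 (94875468 to 94875527) had 423 and 387 untreated and 152 and 101 after OGD. At all 3 probes both OGD arrays were well below both untreated arrays in processed signal. Their log2 fold changes lay close to each other, at −0.22 (SE 0.082), −0.37 (SE 0.080) and −0.34 (SE 0.17) in that order, and at −1.51, −1.66 and −1.63 against the spiked-in RNA. With normexp background correction they were at −0.08, −0.16 and −0.05, while the median of all probes moved from 0.18 to 0.55. Their distances from the median were then −0.64, −0.72 and −0.61, and −0.40, −0.55 and −0.52 without normexp.

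The fourth *Socs2* probe, A_55_P2072586 (94848005 to 94848064), lies 27001 bases from the nearest of the other 3 and is assigned to another transcript in the array's design. Its processed signal was 63.4 and 63.0 untreated and 67.5 and 59.2 after OGD. The groups overlapped in processed signal, so that its log2 fold change of 1.37 (SE 0.075) against the 75th percentile became 0.08 against the spiked-in RNA. Which transcripts give its signal was not tested. Averaged over the 4 probes, the log2 fold change of *Socs2* was 0.11, which matches neither kind of probe.

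*Pim1* had the largest difference of the 9 genes. It encodes a kinase that promotes survival and proliferation and is a classic early target of STAT3 and STAT5. Its probe (A_52_P530291, NM_008842, chromosome 17, 29630740 to 29630799, plus strand) had processed signals of 54.3 and 76.0 in untreated cultures, against 1752 and 1972 in OGD cultures. The groups were far apart without any scaling, and the mean processed signal after OGD was 28.9 times that of the untreated arrays. The normalized log2 signal was −5.06 ± 0.33 untreated and 1.16 ± 0.26 after OGD (SD, n = 2), a log2 fold change of 6.23 (SE 0.23). It placed 15 of 28254 from the highest. The value was 5.37 with normexp background correction and 4.94 against the spiked-in RNA, and *Pim1* was higher after OGD under both.

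*Pim3* encodes a kinase close to PIM1 in sequence. Its probe (A_51_P189746, chromosome 15, 88695626 to 88695685, plus strand) had processed signals of 1805 and 1941 untreated and 1616 and 1803 after OGD. The higher OGD array lay just below the lower untreated array, so that the signals did not overlap but were close. The log2 fold change was 1.24 (SE 0.15), a fold of 2.36, against the 75th percentile and −0.05 against the spiked-in RNA.

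*Pim2*, the third kinase of the family, had processed signals of 251 and 258 untreated and 203 and 175 after OGD (A_52_P608255, chromosome X, 7459678 to 7459737, plus strand). Both OGD arrays were lower in processed signal. Against the 75th percentile the log2 fold change was 0.94 (SE 0.075), a fold of 1.92, and against the spiked-in RNA it was −0.35. Of the 3 kinases, *Pim1* was the 1 whose value after OGD was higher under both scalings.

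*Bcl3* encodes an atypical IκB protein that binds NF-κB p50 and p52 dimers in the nucleus, and its gene is also a STAT3 target. Its probe (A_55_P2066116, chromosome 7, 20393826 to 20393885, minus strand) had processed signals of 2064 and 2330 untreated and 467 and 498 after OGD. Both OGD arrays were below both untreated arrays. The log2 fold change was −0.81 (SE 0.14), 1.76-fold lower, and −2.10 against the spiked-in RNA.

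**Figure D2:**
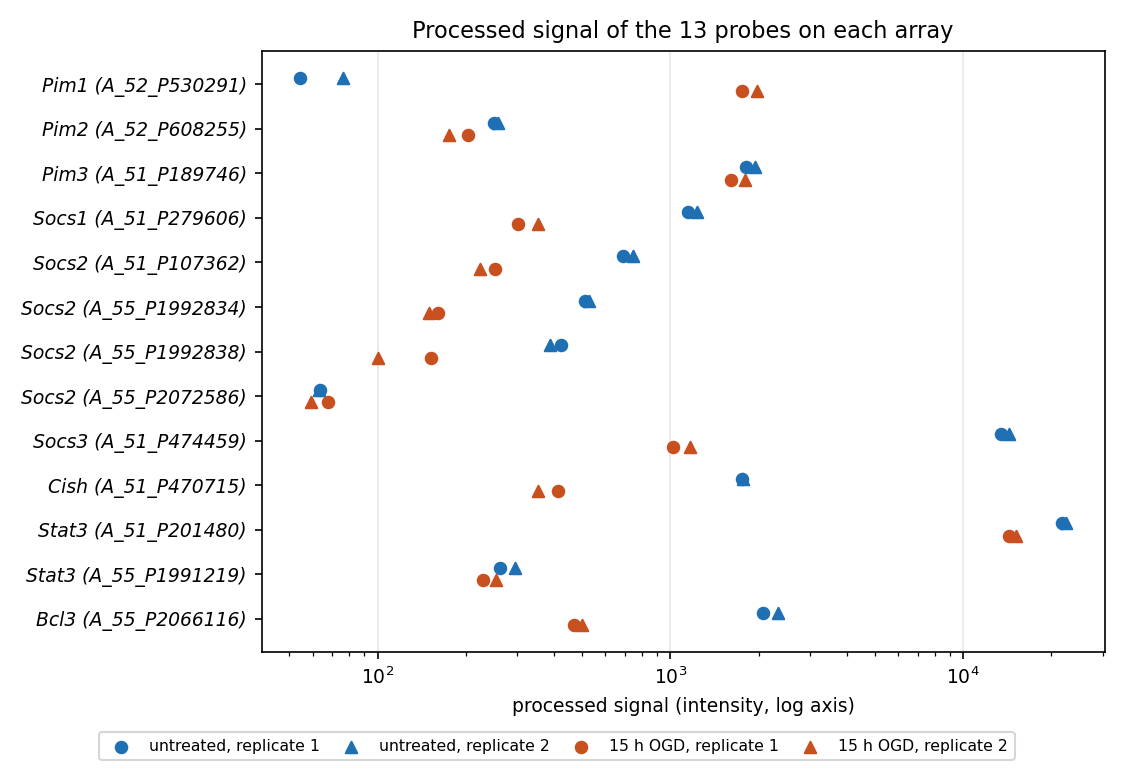
Processed signal of the 13 probes on the 4 arrays, on a log axis, before any scaling between arrays. Blue symbols are untreated and orange symbols OGD cultures, circles replicate 1 and triangles replicate 2. *Pim1* is the gene whose OGD arrays (1752 and 1972) lie far to the right of the untreated arrays (54.3 and 76.0), and the widest gap in the other direction is that of *Socs3*.

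With limma and an adjusted p under 0.05 over all 28254 probes tested, 10 of the 13 probes were called, 6 of them higher and 4 lower after OGD. Over all probes 37.9% were called higher and 27.1% lower. A difference over 10-fold was reached by 1 probe, that of *Pim1*, where 0.811% of all probes were that much higher and 0.524% that much lower. Since the genes were chosen with this comparison known, nothing is read from these counts. The median log2 fold change of the 13 probes was −0.22, beside 0.18 over all probes. Against the spiked-in RNA 10 probes were called, 1 higher and 9 lower, where 4.47% of all probes were higher and 81.9% lower. Past 10-fold were *Pim1*, higher, and *Socs3*, lower, where 0.244% of all probes were that much higher and 4.1% that much lower. The median on this scale was −1.51 beside −1.11.

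Scalings of this kind move all probes of an array alike, so that the distance of a probe from the median of all probes is the same under both. On that measure *Pim1* stood 6.05 above the median on the log2 scale, the *Socs2* probe A_55_P2072586 1.20, *Pim3* 1.06 and *Pim2* 0.76. *Socs3* stood at −2.48, *Cish* at −1.02, *Bcl3* at −0.99 and *Socs1* at −0.67 from it. The feedback inhibitors other than the distant *Socs2* probe thus lay below the median and the Pim kinases and *Stat3* above it.

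**Figure D3:**
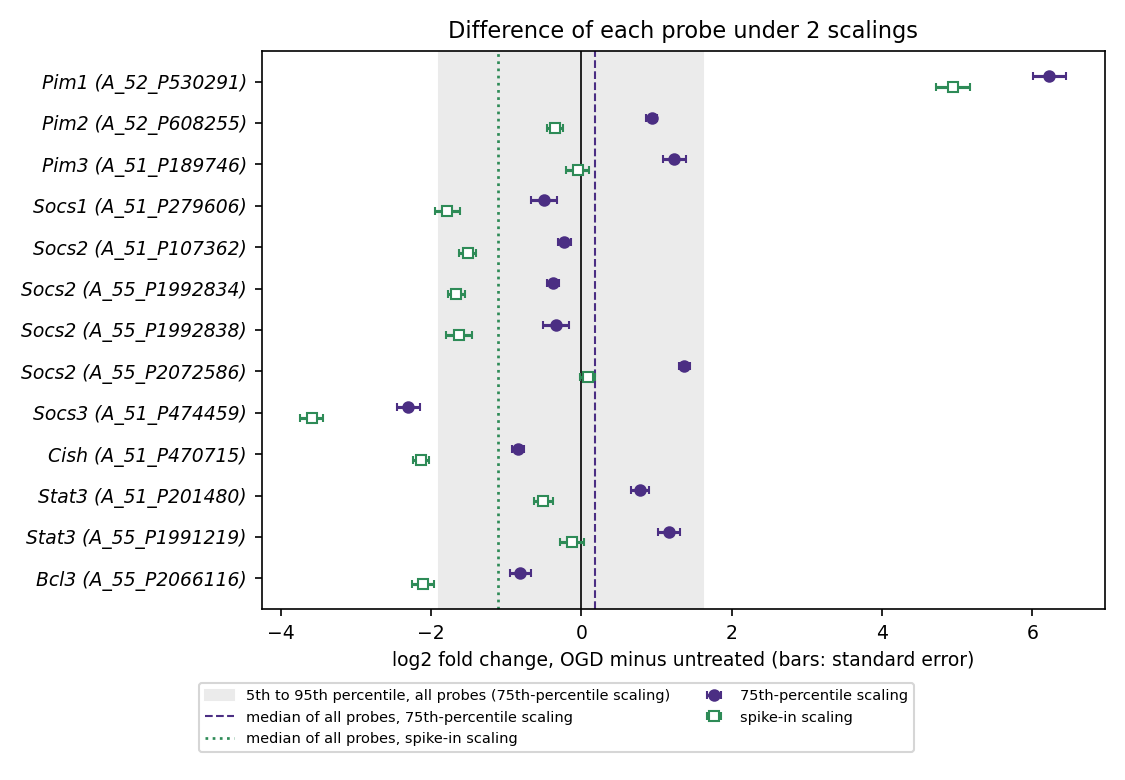
Log2 fold change of each probe, OGD minus untreated, with its standard error, against the 75th percentile (filled circles) and against the spiked-in RNA (open squares). The grey band holds the middle of all probes under the first scaling and the vertical lines mark the median of all probes at 0.18 and −1.11. *Pim1* (6.23 and 4.94) and *Socs3* (−2.30 and −3.59) lie outside the band under both, while *Pim2*, *Pim3* and *Stat3* are above 0 under the first scaling and below it under the second.

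The probes whose pattern was most like that of *Pim1* were found by the distance between the normalized log2 signals on the 4 arrays, each counted from its own untreated mean, over 21943 probes. The 5 nearest genes were *Prok2* at a distance of 0.33, *Wdfy1* at 0.39, *Tac1* at 0.40, *Trib1* at 0.49 and *Slc16a3* at 0.51, with log2 fold changes between 6.08 and 6.42. *Prok2* encodes a secreted prokineticin, *Tac1* the precursor of substance P, *Trib1* a pseudokinase and *Slc16a3* a monocarboxylate transporter that exports lactate. Nearest to *Socs3* were *Gper1* at 0.048, *Cyb561d1* at 0.063, *Cd28* at 0.065, *Tmem110* at 0.077 and *Sh3rf3* at 0.082, with log2 fold changes between −2.35 and −2.26. With 4 arrays in 2 groups such a distance is mostly the size of the fold change.

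The genes around STAT3 were taken from a list of 108 pathway genes, of which 94 had a probe well above background on both arrays of a group and were tested, each by its brightest probe. Of these, 8 were well above background on fewer than 4 arrays and are left out of the totals. Of the other 86, 42 were higher and 20 lower, with a median log2 fold change of 0.37 beside 0.18 over all probes. Against the spiked-in RNA 11 of the 86 were higher and 67 lower, with a median of −0.92 beside −1.11. Over all 28254 probes tested, 37.9% were higher and 27.1% lower relative to the 75th percentile, and 4.47% higher and 81.9% lower against the spiked-in RNA, which are also the shares to set beside the counts by role.

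Upstream of the receptor, 4 of the 6 IL-6 family ligands tested rose relative to the 75th percentile and none fell. *Il11*, a cytokine that signals through gp130, had processed signals of 628 and 815 untreated and 11912 and 11254 after OGD, a log2 fold change of 5.39 (SE 0.15, limma adjusted p = 0.000731). *Il6* went from 94.2 and 81.8 to 1072 and 1129, a log2 fold change of 5.02 (SE 0.15, limma adjusted p = 0.000731). *Lif*, leukemia inhibitory factor, went from 67.8 and 70.6 to 176 and 246, a log2 fold change of 2.96 (SE 0.25, limma adjusted p = 0.00213). These 3 were also higher against the spiked-in RNA, at 4.10, 3.73 and 1.67. *Clcf1*, a gp130 ligand of the ciliary neurotrophic factor receptor, rose by 1.05 against the 75th percentile (limma adjusted p = 0.00255) but was at −0.24 against the spiked-in RNA. *Cntf* at 0.21 and *Ctf1* at −0.33 did not pass (limma adjusted p = 0.101 and 0.12), and they were at −1.08 and −1.62 against the spiked-in RNA. On that scale 3 of the 6 ligands were called higher and 2 lower. *Osm* was not tested, as it was not well above background on both arrays of either group.

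Microglia are a source of IL-6 family cytokines, and their markers were read beside this result. On all 4 arrays 6 of 10 microglial marker genes were well above background, among them *Tmem119*, *P2ry12*, *Csf1r*, *Aif1* and *Itgam*, while *Trem2* was so on 3 arrays and *Cx3cr1*, *Ptprc* and *C1qa* on 2. Of all 39429 probes 24493 were so on all 4 arrays, and nothing is read from the count. *P2ry12* was dim, at 19.5 and 21.5 untreated and 9.97 and 8.04 after OGD. *Aif1* was at 55.6 and 55.0 untreated and 46.8 and 40.7 after OGD. The summed processed signal of the 10 was 5026 and 4481 untreated and 5999 and 5079 after OGD. Without *Cd68*, which alone went from 1157 and 1213 to 4301 and 3778, the sum was 3869 and 3268 untreated and 1699 and 1301 after OGD. Most of that sum was *Itgam*, with 3328 and 2726 untreated and 1376 and 1015 after OGD. Relative to the 75th percentile *Itgam* was at 0.02 and did not pass (limma adjusted p = 0.907). The summed signal of 10 astrocyte markers, all well above background on all 4 arrays, was 358848 and 321649 untreated and 201918 and 180696 after OGD. Of these 10, 6 were higher and 1 lower relative to the 75th percentile, beside 37.9% and 27.1% of all probes. Against the spiked-in RNA none was higher and 8 were lower, beside 4.47% and 81.9%. Relative to the 75th percentile, *Cd68* (3.14), *Csf1r* (1.14) and *Aif1* (1.03) were higher. *Trem2* was at −0.93 and *Tmem119* at −0.88, but with normexp at 0.67 and 0.18, where the median of all probes was 0.55. Against the spiked-in RNA *Cd68*, a lysosomal glycoprotein, was still higher at 1.85 while *Csf1r* and *Aif1* were at −0.15 and −0.26. The part of microglia in the cytokine signal was not tested. The 8 oligodendrocyte markers, 7 of them well above background on all arrays, summed to 42049 and 37306 untreated and 26091 and 25217 after OGD. Among them *Olig2*, a transcription factor of the lineage, went from 5491 and 5336 to 379 and 358, a log2 fold change of −2.50 (limma adjusted p = 0.000731). The 4 NG2 glia markers, 3 of them well above background on all arrays, summed to 40811 and 41476 untreated and 12839 and 10147 after OGD. Nearly all of that sum was *Olig1*, with 40248 and 40851 untreated and 12527 and 9906 after OGD, and relative to the 75th percentile *Olig1* was lower at −0.49 and *Pdgfra* at −1.27 (limma adjusted p = 0.0131 and 0.0114). *Cspg4* was higher at 0.88 on that scale (limma adjusted p = 0.00272) and at −0.41 against the spiked-in RNA. The part of these cells in the signals of the 9 genes was not tested.

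Of the 6 other ligands tested, *Csf2*, *Ifnb1* and *Ifng* were well above background in 1 group each and passed the filter through it, so that no count of calls is given for them. *Ifnb1*, encoding interferon β, was not well above background in untreated cultures (3.07 and 2.89) and had processed signals of 43.3 and 65.8 after OGD. With the OGD mean set against the dimmest signal marked above background, it was at least 20.3-fold higher relative to the 75th percentile and at least 8.31-fold higher relative to the spiked-in RNA. *Ifng*, interferon γ, went from 14.8 and 10.8 to 1.68 and 1.79, which is not well above background. Its log2 fold change was −1.49 with the processed signal and 1.02 with normexp, so that no direction is given. Of 18 receptor genes, 6 were higher, 6 lower and 6 did not pass, and against the spiked-in RNA none was higher and 16 were lower. The largest changes were those of *Epor*, the erythropoietin receptor, at 1.46 (limma adjusted p = 0.00099) and *Lifr*, the receptor chain for LIF, at −2.11 (limma adjusted p = 0.000754). The 3 *Lifr* probes disagreed, with log2 fold changes from −2.11 to 0.97.

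Of the Janus kinases, *Jak1* was higher by 0.66 (limma adjusted p = 0.00405) and *Tyk2* lower, at −1.82 (limma adjusted p = 0.00175), while *Jak2* at −0.32 and *Jak3* at −0.03 did not pass (limma adjusted p = 0.0586 and 0.76). *Jak1* was at −0.63 against the spiked-in RNA. Of the other STAT genes none was called higher relative to the 75th percentile or against the spiked-in RNA. *Stat5a*, which like *Stat5b* carries cytokine and growth hormone signals, was lower at −1.65, *Stat5b* at −0.81 and *Stat2*, a part of the interferon response complex, at −0.73 (limma adjusted p = 0.00105, 0.00294 and 0.0231). *Stat6* at −0.19 did not pass (limma adjusted p = 0.139). *Stat4*, with processed signals of 8.80 and 7.53 untreated and 2.02 and 3.28 after OGD, was well above background on 2 arrays, and no fold or p is given for it. Beside them, the *Stat3* probes were at 0.78 and 1.17 on the same scale.

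The SOCS genes outside the cytokine-induced group, which encode adaptors for ubiquitin ligases, were all higher relative to the 75th percentile. *Socs6* was at 2.34 (limma adjusted p = 0.000731), with its 4 probes between 0.58 and 2.34, and *Socs4* was at 1.59 (limma adjusted p = 0.00119). Both were also higher against the spiked-in RNA, at 1.05 and 0.30. *Socs5* at 0.54 and *Socs7* at 0.46 (limma adjusted p = 0.0105 and 0.00935) turned to −0.75 and −0.83 there. Beside them, the values of the cytokine-induced inhibitors against the 75th percentile were −2.30 for *Socs3*, −0.84 for *Cish*, −0.49 for *Socs1* and, by probe, −0.22, −0.37, −0.34 and 1.37 for *Socs2*. Of 11 other inhibitors of the pathway, 5 were higher and 3 lower relative to the 75th percentile, and none higher and 10 lower against the spiked-in RNA. Among these 10 is *Ptprc*, which was well above background on 2 arrays only, at 10.5 and 11.7 untreated and 4.21 and 7.11 after OGD. The largest changes were those of *Pias2*, of the PIAS family of SUMO ligases, at 1.01 (limma adjusted p = 0.00175, and −0.28 against the spiked-in RNA), and of *Ptpn1*, a phosphatase of Janus kinases, at −1.73 (limma adjusted p = 0.00315).

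Downstream, 12 of 18 known STAT3 target genes were higher and 2 lower relative to the 75th percentile, and 4 were higher and 12 lower against the spiked-in RNA. *Myc*, which encodes a growth-promoting transcription factor and is also a Pim kinase substrate, had processed signals of 1331 and 1390 untreated and 6136 and 5937 after OGD. Its log2 fold change was 3.52 (SE 0.092, limma adjusted p = 0.000731), and 2.23 against the spiked-in RNA. *Birc5*, encoding survivin, was lower at −0.60 (limma adjusted p = 0.018). *Socs3* and *Bcl3*, targets of STAT3 as well, were lower under both scalings, so that the targets did not move as 1 group. Of the STAT5 targets 3 were tested and 1 was lower (3 against the spiked-in RNA), *Id1* at −0.58 (limma adjusted p = 0.0361), from 3 arrays because 1 untreated spot was marked as an outlier and left out.

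Of 10 substrates of Pim kinases, 4 were higher and 3 lower relative to the 75th percentile, and 2 higher and 8 lower against the spiked-in RNA. Beside *Myc*, the largest difference was that of *Cdc25a*, a cell cycle phosphatase, at −1.74 (limma adjusted p = 0.00138). Of 9 genes of NF-κB proteins that work with BCL3, 6 were higher and 1 lower relative to the 75th percentile, and 1 higher and 7 lower against the spiked-in RNA. *Nfkbiz*, which like *Bcl3* encodes a nuclear IκB protein, was at 2.55 (limma adjusted p = 0.00944, and 1.26 against the spiked-in RNA), and *Nfkbie* was at −1.70 (limma adjusted p = 0.000967).

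**Figure D4:**
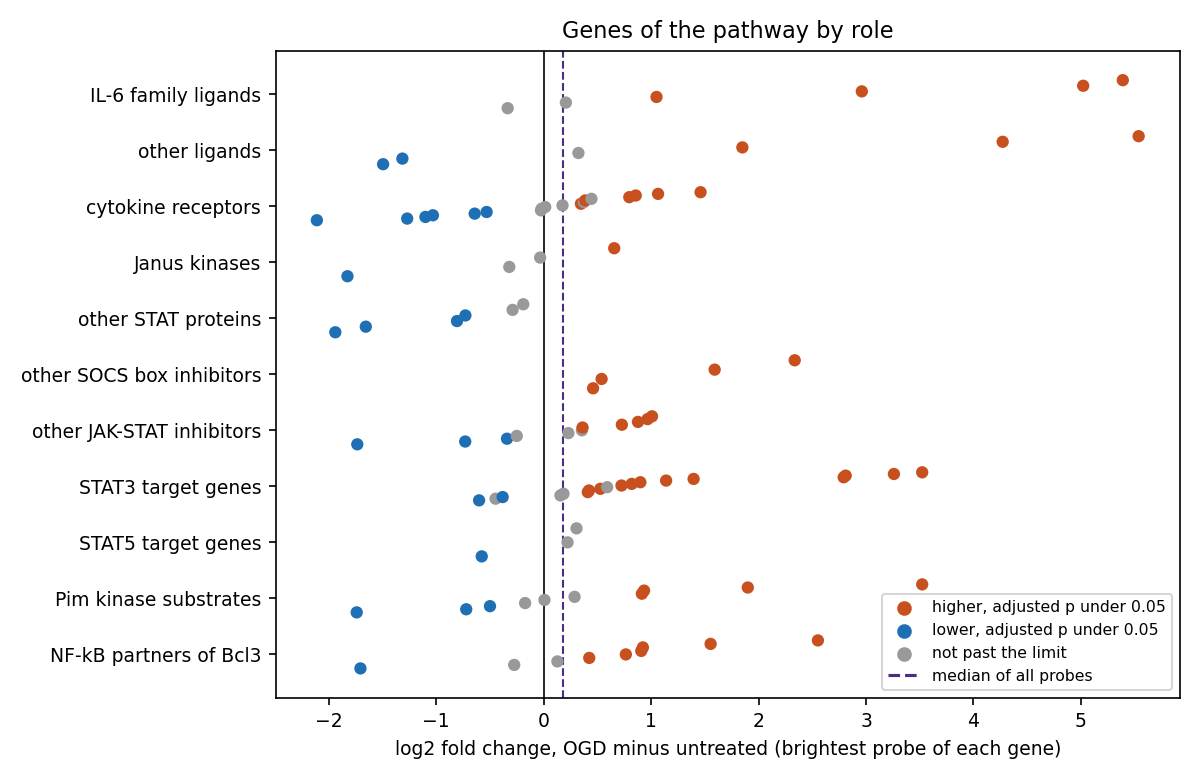
Log2 fold change, OGD minus untreated, of the pathway genes tested, by role, against the 75th percentile. Each point is the brightest probe of a gene, orange where higher and blue where lower with a limma adjusted p under 0.05 and grey otherwise, and the dashed line is the median of all probes. *Il11* (5.39) and *Il6* (5.02) stand far to the right among the IL-6 family ligands, while no other STAT gene was higher. Against the spiked-in RNA most of the points to the right of 0 lie to its left, and of the 86 genes well above background on all arrays 11 were higher and 67 lower.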

How the data were processed

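Total RNA of AECs, untreated (n = 2) or after 15 h of OGD (n = 2), was labeled with Cy3 and read on 4 arrays of 1 slide in 1 scan. The authors deposited an intensity for each spot, the processed signal of Agilent Feature Extraction 11.5.1.1 (version per the file headers), with background subtracted within each array and no normalization between arrays. Here log2 was taken, control and outlier spots were left out, spots of a probe were averaged and each array's 75th percentile was subtracted. Probes well above background (at least a fraction of 0.5 of their spots) on both arrays of a group were tested with limma 3.58.1 in R 4.3.3 with Benjamini–Hochberg adjustment over 28254 probes. The number of arrays limits the precision. Python 3.11.15 (pandas 2.3.3, numpy 2.4.6, matplotlib 3.10.9) served for tables and plots. The fit was checked on simulated data.

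The members and lists were chosen with earlier results of these data known. Named were every member with all its probes, all IL-6 family ligands, Janus kinases, other STAT and other SOCS genes, for each further role the gene with the largest increase and decrease past the adjusted p by its brightest probe, and the 5 probes nearest to the members with the largest increase and decrease. A result that this rule covers but the text does not name is not reported here. The lists held the pathway genes by role and cell type markers (neurons, NG2 glia, meningeal fibroblasts and vessels, oligodendrocytes, microglia, astrocytes). Well above background on every array were 5 of 6 neuronal, 3 of 4 NG2 glia and 5 of 7 fibroblast and vascular markers. The alternatives tried were spiked-in RNA, the median, quantile normalization or the percentile over well-measured probes as the scale, normexp (offset 50), the methods' t-test, limma with trend and robust prior, a replicate block, other filters for dim or outlying spots, the series table, the mean over probes of a gene and leaving out each array.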

Additional observations from a re-analysis of the deposited data

How the results depend on the processing

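The log2 fold changes of the 13 probes were recomputed under 16 other settings and, for *Stat3* and *Socs2*, with the mean over the gene's probes. *Pim1* stayed between 4.94 and 6.46, *Socs3* between −3.59 and −2.11, *Cish* between −2.13 and −0.77 and *Bcl3* between −2.10 and −0.67. The sign turned against the spiked-in RNA for *Pim2* (−0.35), *Pim3* (−0.048) and both *Stat3* probes (−0.50 and −0.12). For *Pim3* and the *Stat3* probe A_55_P1991219 the value was smaller than its SE (0.15 and 0.16), so that no direction is given for them there. It turned for the 3 neighbouring *Socs2* probes where the mean over all *Socs2* probes was used (0.11). The spiked-in scaling shifts all probes of an array alike. With normexp the *Socs2* probe A_55_P1992834 was at −0.16 and was not called, where the median of all probes was 0.55. With quantile normalization the *Stat3* probe A_51_P201480 was at 0.24 and was not called.

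Leaving out each array in turn gave 7 to 11 called probes of the 13, 63 to 107 of the pathway probes (106 with all arrays) and 10246 to 19173 of all probes (18351 with all arrays), with the remaining array of that group taken to vary as the other group does. Without untreated replicate 1 there were 11097 and without untreated replicate 2 10246, and 70 and 63 for the pathway. Without either of these arrays *Bcl3*, the *Stat3* probe A_51_P201480 and the *Socs2* probe A_55_P1992834 were not called, at −0.89 and −0.73, 0.77 and 0.80, and −0.39 and −0.36. *Socs1* was called without OGD replicate 2 (−0.70) and the *Socs2* probe A_55_P1992838 without OGD replicate 1 (−0.54). The methods' t-test called 7 of the 13 and 12680 of all probes. With the replicate block 10 of the 13, 97 pathway probes and 17207 of all probes were called. Replicates of equal number were not shown to be paired, as their deviations correlated at r = −0.057 across probes. Against the spiked-in RNA the calls split into 1262 higher and 23153 lower, where the 75th percentile gave 10707 and 7644. Signal over background limits the untreated values of *Pim1* and of the distant *Socs2* probe, at most 76.0 and 63.4 in processed signal.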
